A study of Mus musculus with 9 samples.

Results

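The 28 genes described here make cholesterol or control its making: 20 enzymes from acetyl-CoA to cholesterol, 5 parts of the machinery of the transcription factor SREBP2, and 3 proteins that bind or move sterols. They were taken by gene name from the deposited count table, which lists 54532 genes. All 28 were found, and all 28 were among the 14025 genes with enough counts to be tested. RNA had been sequenced from the livers of 9 male wild-type C57BL/6 mice. Mice of 3 livers were 20 months old and had received, at 14 months, adeno-associated virus 9 (AAV9, a gene delivery vector) carrying a short hairpin RNA against Fabp4, which encodes a fatty acid carrier of fat cells and macrophages. Mice of another 3 livers were of the same age and had received, at the same age, the same vector with a negative control hairpin. The remaining 3 mice were 8 weeks old, and no injection of theirs is described. In both old groups the virus had been given through the tail vein and into the subcutaneous fat. Age and injection therefore go together in each comparison with young liver, and the hour of dissection is not given in the labels.

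Cholesterol is built from acetyl-CoA through mevalonate, isoprenoid diphosphates, squalene and lanosterol. When sterols in the membrane of the endoplasmic reticulum run low, the escort protein SCAP carries SREBP2 to the Golgi, where proteases release its transcription factor domain, and the released factor raises transcription of nearly all the enzymes. INSIG proteins hold SCAP back when sterols are plentiful, and in the liver the pathway also follows feeding and the time of day.

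The libraries held 14243344 to 17125440 counts, and 3 counts, taken as the detection floor, correspond to 0.175 to 0.211 CPM (counts scaled to library size). Albumin, a hepatocyte product, took 5.34% to 10.4% of the counts, while the labels' extraction text names NRVMs, an abbreviation used for heart muscle cells of newborn rats. Of the young columns, 1 carries a number that no young label has, and it is called the unnumbered young library below. Its summed level of 6 skeletal muscle markers was 3081 CPM. That sum was 73.2 CPM in replicate 3 labelled Fabp4 shRNA and at most 2.51 CPM in the remaining libraries. The column of the unnumbered young library in the authors' deposited table of normalised values did not match its counts. Fabp4 itself stood at 11.2, 3.80 and 7.56 CPM in livers labelled Fabp4 shRNA, 7.19, 13.6 and 10.8 CPM in old control livers, and 3.39, 2.67 and 64.7 CPM in young livers. The first replicate with the hairpin was above 2 of the 3 old controls, and a knockdown was not detectable in liver RNA (log2 difference -0.49 ± 1.16, SE). Groups are therefore called by their labels, and directions below are those between labels. In each list of values below, the livers stand in the order of replicates 1, 3 and 6 for Fabp4 shRNA, 1, 2 and 5 for old control, and 1, 5 and the unnumbered library for young. CPM were scaled between libraries with TMM factors (trimmed means of M values).

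SREBP2 acts on promoters together with the factors NF-Y and Sp1, so the promoters of 5 members whose levels are described below are shown, from the RefSeq table of GRCm38.p6. Each runs from 250 bases before to 50 bases after a transcript start, and 23 of the 28 members had an entry. Capitals mark the NF-Y box (CCAAT, or ATTGG where it lies on the other strand) and, in Hmgcs1, the sterol regulatory element TCACNCCAC (N is any base). Insig2 has 3 entries, and the one shown was picked because it alone of them holds an NF-Y box; the 2 others hold an Sp1 box each.
Hmgcs1: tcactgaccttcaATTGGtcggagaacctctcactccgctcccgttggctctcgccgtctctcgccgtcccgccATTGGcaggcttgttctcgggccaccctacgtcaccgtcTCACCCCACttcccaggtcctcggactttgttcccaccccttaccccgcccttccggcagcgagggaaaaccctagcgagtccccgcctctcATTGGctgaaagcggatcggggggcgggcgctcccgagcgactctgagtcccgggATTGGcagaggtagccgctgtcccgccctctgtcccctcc
Msmo1: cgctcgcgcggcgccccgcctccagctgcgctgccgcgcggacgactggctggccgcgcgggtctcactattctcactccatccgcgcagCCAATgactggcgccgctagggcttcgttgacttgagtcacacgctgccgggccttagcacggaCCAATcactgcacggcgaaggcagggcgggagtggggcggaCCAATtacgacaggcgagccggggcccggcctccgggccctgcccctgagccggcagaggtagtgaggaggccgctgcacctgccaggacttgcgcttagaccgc
Nsdhl: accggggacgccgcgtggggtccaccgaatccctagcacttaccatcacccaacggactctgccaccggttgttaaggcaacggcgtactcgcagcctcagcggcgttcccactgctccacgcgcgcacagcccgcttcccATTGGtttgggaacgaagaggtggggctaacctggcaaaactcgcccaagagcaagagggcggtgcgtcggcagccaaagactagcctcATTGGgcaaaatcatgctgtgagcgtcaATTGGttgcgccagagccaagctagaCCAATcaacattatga
Insig1: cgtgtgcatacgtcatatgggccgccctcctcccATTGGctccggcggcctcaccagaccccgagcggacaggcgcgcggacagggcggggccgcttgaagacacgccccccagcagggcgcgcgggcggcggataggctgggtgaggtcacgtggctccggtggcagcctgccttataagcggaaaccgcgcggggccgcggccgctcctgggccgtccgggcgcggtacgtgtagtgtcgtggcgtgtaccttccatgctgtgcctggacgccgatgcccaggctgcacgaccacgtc
Insig2: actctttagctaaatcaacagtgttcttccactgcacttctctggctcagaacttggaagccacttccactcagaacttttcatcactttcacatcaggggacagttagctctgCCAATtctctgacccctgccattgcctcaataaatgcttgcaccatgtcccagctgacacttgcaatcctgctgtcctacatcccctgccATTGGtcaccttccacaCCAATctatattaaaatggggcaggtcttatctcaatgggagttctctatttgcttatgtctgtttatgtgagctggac
These windows lie at chr13:119690101-119690400, plus strand (Hmgcs1), chr8:64733529-64733828, minus strand (Msmo1), chrX:72918271-72918570, plus strand (Nsdhl), chr5:28071162-28071461, plus strand (Insig1) and chr1:121332540-121332839, minus strand (Insig2). Both strands were searched. An NF-Y box stood in at least 1 promoter of 19 of the 23 members, against 37.4% of all 32851 promoters in the table. The Sp1 box GGGCGG stood in 20 of the 23 members, against 35.7% of all promoters. Members with several entries had more chances to hold a match, and the 23 members had 29 promoters. The sterol regulatory element in the spelling searched was found in Hmgcs1 alone among the 23, against 1.24% of all promoters. Of motifs read by clock factors, the E-box CACGTG was found in 5 of the 23 members (7.15% of all promoters), the element TAGGTCA in Dhcr7 alone (2.61%) and the D-box TTATGNAA in 0 (3.39%). Each match is a run of letters and does not show that a factor binds there.

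Per gene length, the member with the highest RNA level was Insig2, which retains SCAP in the endoplasmic reticulum, at a median of 84.5 FPKM (the authors' fragment counts per length of gene and size of library) and a range of 29.2 to 162 FPKM over the 8 libraries whose tables matched. Ebp, a sterol isomerase, followed at 70.8 FPKM, inside that range, and Hmgcs1, the cytosolic HMG-CoA synthase, at 37.0 FPKM. Tmem97, a sterol-binding membrane protein, Sc5d, a sterol desaturase, and Insig1, the other SCAP retention protein, had medians of 34.9, 33.9 and 32.0 FPKM, which lie within each other's ranges. Srebf2, the gene of SREBP2 itself, had a median of 5.30 FPKM and ranged from 3.89 to 8.14 FPKM. Fdps, the farnesyl diphosphate synthase, was lowest at 0.0872 FPKM, with 109 counts in all 9 libraries together. Of the stretches of 50 bases in its annotated exons, 26.2% also occur in other genes, 7 of them annotated as pseudogenes. Gm43738 shared the most stretches and overlaps Fdps exons on the same strand. The Fdps level therefore depends on how shared reads were counted. The same holds for Acat2 (39.1% shared, with Acat3), Fdft1 (26.5%, with Ctsb, which overlaps it on the other strand), Idi1 (25.3%) and Tmem97 (20.8%), while Sqle, Nsdhl and Insig2 shared at most 0.036%.

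Members varied widely between livers of 1 group as well as between groups. The highest of the 9 levels was a median of 3.10 times the lowest over the 28 genes, and over 3 times for 15 of them. It was under 2 times for 8, among them Acat2, the cytosolic thiolase of the opening step (1.38 times), Scap (1.52 times) and Mbtps1, a Golgi protease that cuts SREBP2 (1.51 times). Young replicate 1 had the highest level of all 9 livers for 17 members, and among the young livers it was highest for 20 and the unnumbered library lowest for 22. The level of each member was set against its own mean on the log2 scale, and the median over the 20 enzymes was -0.22, -0.31 and -0.60 in livers labelled Fabp4 shRNA, 0.47, 0.10 and -0.21 in old control livers, and 0.91, 0.20 and -0.30 in young livers. The summed level of these 20 enzymes was 849.6, 855 and 768 CPM in livers labelled Fabp4 shRNA, 1151, 1178 and 906 CPM in old control livers, and 1629.7, 1249.7 and 799 CPM in young livers. By both summaries the livers labelled Fabp4 shRNA lay below all 3 old controls, and the young livers spanned nearly the whole range.

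**Figure D1:**
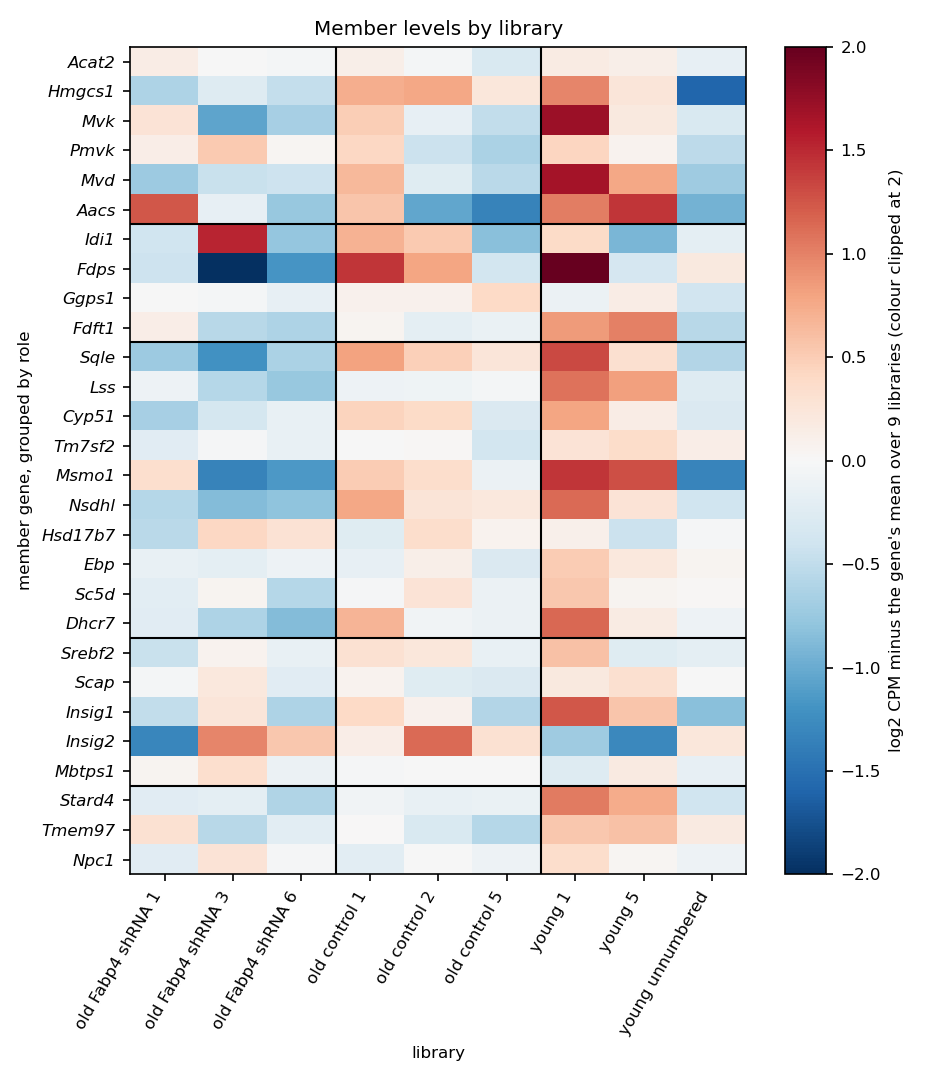
Each row is 1 of the 28 genes, grouped by role from mevalonate steps (top) to sterol movement (bottom), and each column is 1 library. Colour gives log2 CPM minus the gene's mean over the 9 libraries. Young replicate 1 is the highest of the 9 for 17 genes, and the unnumbered young library is the lowest of the 3 young livers for 22.

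Between the old groups, several enzymes were lower in livers labelled Fabp4 shRNA than in old control livers, but 0 of 28 members passed edgeR's quasi-likelihood test at a Benjamini-Hochberg adjusted p under 0.05. Of all 14025 genes, 0% passed. At an unadjusted p under 0.05, 4 members were lower (3.48% of all genes were) and 0 higher (3.27%). DESeq2, limma-voom and limma on log2 FPKM also called 0 members, with 5, 3 and 4 lower at an unadjusted p under 0.05 (3.82%, 3.45% and 3.97% of all genes). The levels of 7 members (Hmgcs1, Fdps, Ggps1, Sqle, Nsdhl, Dhcr7 and Stard4) did not overlap between the groups, each lower in livers labelled Fabp4 shRNA, against 5.67% of all genes, and 0 did so in the other direction (6.02%). The median log2 fold change was -0.25 over the members and -0.01 over all genes, and 19 members were below 0, where 51.4% of all genes were. On this contrast, with 3 livers a group, the p-values set the difference against a spread estimated over all 9 livers, the young ones included. In whole liver fewer cells of a type and less RNA per cell cannot be told apart.

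Among mevalonate steps, Hmgcs1, which joins acetyl-CoA to acetoacetyl-CoA, had 97.4, 125 and 107 CPM in livers labelled Fabp4 shRNA and 248, 256 and 175 CPM in old control livers. Every liver labelled Fabp4 shRNA was below every old control, and the means were 109.8 ± 13.8 CPM in livers labelled Fabp4 shRNA and 226 ± 44.9 CPM in old control livers (SD, n = 3 each). The log2 fold change was -1.04 ± 0.48, with a 95% interval of -2.11 to 0.03 (unadjusted p = 0.0552, adjusted p = 0.741) in edgeR with Benjamini-Hochberg adjustment, so the interval reached 0. That error includes the spread of the young livers. With reads worked back from FPKM for the unnumbered young library, edgeR gave -1.01 ± 0.32 (unadjusted p = 0.00745, adjusted p = 0.488). The other 5 mevalonate members ran from -0.57 for Mvd, the mevalonate diphosphate decarboxylase, to 0.70 for Aacs, the acetoacetyl-CoA synthetase, and their groups overlapped.

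Among sterol steps, 9 of 10 log2 fold changes were below 0, with a median of -0.48. Sqle, the squalene epoxidase and a rate-controlling enzyme of the later pathway, had 12.1, 8.64 and 13.0 CPM in livers labelled Fabp4 shRNA and 35.3, 27.9 and 23.8 CPM in old control livers. The highest liver with the hairpin label was well under the lowest control, and edgeR's log2 fold change was -1.36 ± 0.40, with a 95% interval of -2.24 to -0.49 (unadjusted p = 0.00539, adjusted p = 0.728). Nsdhl, a sterol dehydrogenase that removes methyl groups of lanosterol together with Msmo1, had 10.7, 8.70 and 9.18 CPM in livers labelled Fabp4 shRNA and 27.3, 19.2 and 18.5 CPM in old control livers. Its groups did not overlap either, and the log2 fold change was -1.18 ± 0.34, with a 95% interval of -1.91 to -0.45 (unadjusted p = 0.00403, adjusted p = 0.728). Dhcr7, the reductase of a last step to cholesterol, had 19.0, 14.4 and 12.2 CPM in livers labelled Fabp4 shRNA and 35.8, 21.2 and 20.5 CPM in old control livers, with a log2 fold change of -0.77 ± 0.34 (unadjusted p = 0.0443, adjusted p = 0.728). Its highest value with the hairpin label, in replicate 1, came close to the lowest control.

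Cyp51, the lanosterol demethylase, had 37.9, 47.3 and 54.5 CPM in livers labelled Fabp4 shRNA and 81.7, 78.2 and 49.5 CPM in old control livers. Replicate 6 with the hairpin label exceeded old control replicate 5, and edgeR gave -0.58 ± 0.29 (unadjusted p = 0.0651, adjusted p = 0.741). Msmo1, the methylsterol monooxygenase, was at 70.7, 22.2 and 25.2 CPM in livers labelled Fabp4 shRNA and 79.6, 71.0 and 51.5 CPM in old control livers, so that replicate 1 with the hairpin label lay among the controls and the other two far under them. Lss, the lanosterol synthase, was at 17.3, 12.5 and 10.9 CPM in livers labelled Fabp4 shRNA and 17.2, 17.3 and 18.1 CPM in old control livers. The 3 controls nearly coincided, replicate 1 with the hairpin label lay within them, and the log2 fold change was -0.37 ± 0.31 (unadjusted p = 0.246, adjusted p = 0.863). Hsd17b7, a ketosteroid reductase of the pathway, was the sterol step with a value above 0, at 0.03, and Ebp, Tm7sf2 and Sc5d had overlapping groups.

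Of the isoprenoid enzymes, Fdps had 6, 1 and 4 counts in livers labelled Fabp4 shRNA against 24, 12 and 6 counts in old control livers, and its log2 fold change of -2.06 ± 0.93 (unadjusted p = 0.0452, adjusted p = 0.728) rests on these few reads. The 1 count in replicate 3 is under the floor of 3 counts. The groups met at 6 counts and were apart only after scaling, at 0.366 CPM in replicate 1 with the hairpin label and 0.378 CPM in old control replicate 5. Ggps1, the geranylgeranyl diphosphate synthase, had 10.2, 9.96 and 9.12 CPM in livers labelled Fabp4 shRNA and 10.9, 10.9 and 13.6 CPM in old control livers, which do not overlap but differ little (-0.28 ± 0.23 (unadjusted p = 0.252, adjusted p = 0.866)). In the control machinery, Srebf2 had 29.5, 42.1 and 36.2 CPM in livers labelled Fabp4 shRNA and 49.4, 47.0 and 36.4 CPM in old control livers. Replicate 3 with the hairpin label was above old control replicate 5, and the difference was within the spread (-0.30 ± 0.25 (unadjusted p = 0.258, adjusted p = 0.866)). Insig1, a target of SREBP2 as well as its brake, had 65.2, 108 and 59.6 CPM in livers labelled Fabp4 shRNA and 121, 96.8 and 61.2 CPM in old control livers, with overlapping groups and -0.26 ± 0.46 (unadjusted p = 0.578, adjusted p = 0.943). Insig2 overlapped widely (-0.24 ± 0.56 (unadjusted p = 0.679, adjusted p = 0.959)). Stard4, a sterol carrier between membranes, had 36.4, 37.3 and 28.1 CPM in livers labelled Fabp4 shRNA and 40.9, 38.7 and 39.1 CPM in old control livers, all below the controls by a small margin.

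**Figure D2:**
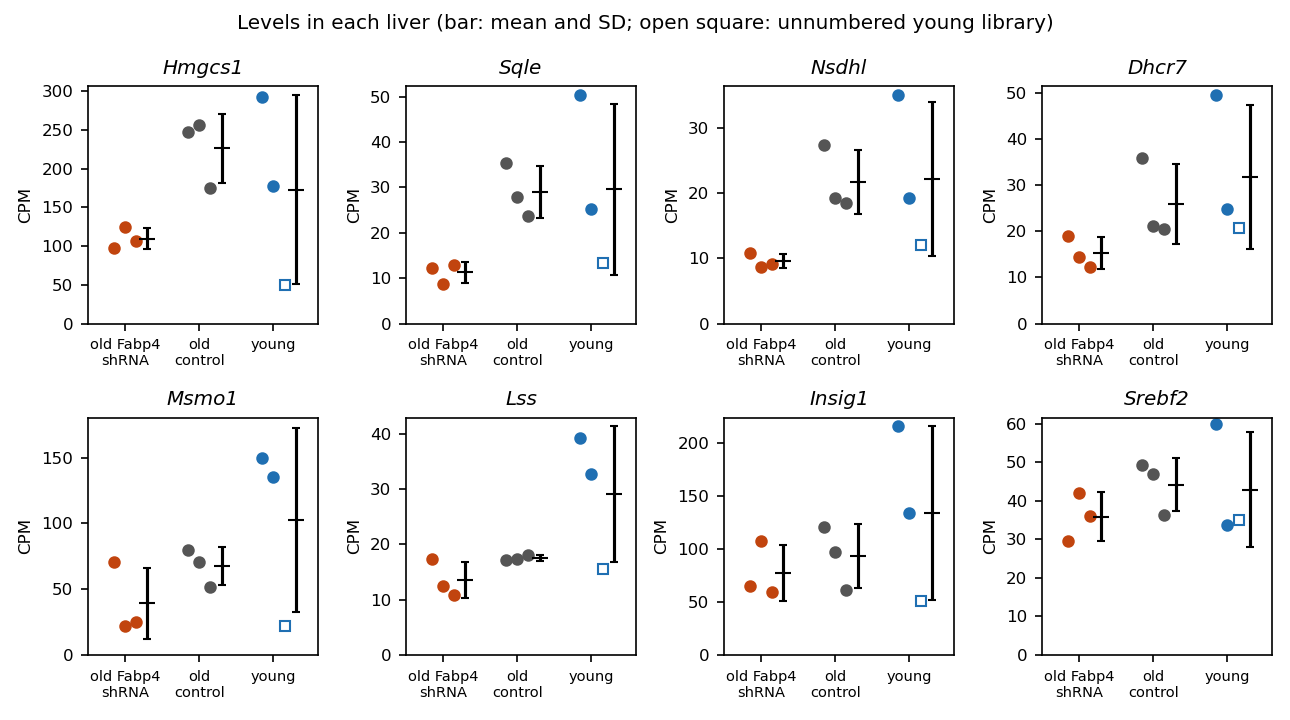
Points are CPM in single livers of 8 members, from livers labelled Fabp4 shRNA (left), old control (middle) and young (right) mice; bars give the mean and SD, and the open square is the unnumbered young library. Hmgcs1, Sqle, Nsdhl and Dhcr7 lie lower in every liver labelled Fabp4 shRNA than in any old control, while young livers spread from 13.3 to 50.2 CPM for Sqle.

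How many members had an unadjusted p under 0.05 depended on single livers. The count of 4 lower members became 2 without replicate 3 labelled Fabp4 shRNA (2.87% of all genes were lower at that p) and 2 without replicate 6 of that group (2.18%). Without old control replicate 1 it was 2 (2.56%), with 1 member higher (Pmvk, the phosphomevalonate kinase; 3.19% of all genes). Without young replicate 1, which enters through the shared estimate of spread, it was 6 (3.11%). It was also 6 with the 6 libraries of the old groups alone (3.33%). With reads worked back from FPKM for the unnumbered young library it was 6 as well (3.69%). Markers of cell types also differed between these livers. Of 6 hepatocyte markers 5 were found by symbol and 0 were at 0, and their summed level was 64044 to 81175 CPM in livers labelled Fabp4 shRNA and 79976 to 123390 CPM in old control livers. The 3 neutrophil markers summed to 5.01 to 13.5 CPM in livers labelled Fabp4 shRNA and 14.4 to 51.2 CPM in old control livers, and the 3 B cell markers to 52.3 to 135 CPM in livers labelled Fabp4 shRNA and 148 to 334 CPM in old control livers. The sums of both immune lists did not overlap between the groups, each lower with the hairpin label. Nearly all of the B cell sum was Igkc, at 51.2 to 131 CPM with the hairpin label and 146 to 328 CPM in old control livers. Cd79a and Ms4a1, the other B cell markers, overlapped between the groups. Of the neutrophil markers S100a8 overlapped, while S100a9 and Csf3r did not. The part of these markers in the members' differences was not tested.

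Against young liver, the livers labelled Fabp4 shRNA again had 0 of 28 members called by edgeR, where 0.057% of all genes were. At an unadjusted p under 0.05, 11 members were lower (4.5% of all genes) and 0 higher (4.43%): Mvk, Mvd, Fdps, Fdft1, Sqle, Lss, Cyp51, Nsdhl, Dhcr7, Stard4 and Tmem97. DESeq2 and limma-voom called 0 members, with 12 and 7 lower at an unadjusted p under 0.05 (5.32% and 4.66% of all genes), while limma on log2 FPKM and edgeR on reads worked back from the FPKM values called 1 (Nsdhl), where they called 0.379% and 0.445% of all genes. The median log2 fold change was -0.50 over the members and 0.02 over all genes, and 22 members were below 0, where 47.8% of all genes were. Levels did not overlap for 6 members, all lower (6.67% of all genes). Scaling by total counts alone moved the median of all genes to 0.31 in this comparison, 0.13 between the old groups and 0.16 between old control and young liver, and the members' medians were then -0.20, -0.11 and -0.06. With that scaling 4 members were lower at an unadjusted p under 0.05 in this comparison (1.2% of all genes), 2 between the old groups (1.47%) and 0 between old control and young liver (1.41%).

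Nsdhl had 10.7, 8.70 and 9.18 CPM in livers labelled Fabp4 shRNA and 35.0, 19.2 and 12.0 CPM in young livers, and its log2 fold change was -1.21 ± 0.34, with a 95% interval of -1.94 to -0.48 (unadjusted p = 0.00349, adjusted p = 0.366). All livers labelled Fabp4 shRNA were below all young ones, with the unnumbered library nearest to them. Sqle, at 12.1, 8.64 and 13.0 CPM in livers labelled Fabp4 shRNA and 50.2, 25.2 and 13.3 CPM in young livers, differed by -1.39 ± 0.40 (unadjusted p = 0.00477, adjusted p = 0.392) on the log2 scale, and here the unnumbered young library lay only just above the highest liver with the hairpin label. Lss, at 17.3, 12.5 and 10.9 CPM in livers labelled Fabp4 shRNA and 39.3, 32.7 and 15.5 CPM in young livers, differed by -1.10 ± 0.31, with a 95% interval of -1.77 to -0.44 (unadjusted p = 0.00345, adjusted p = 0.366), with an overlap between replicate 1 labelled Fabp4 shRNA and the unnumbered library. Dhcr7, at 19.0, 14.4 and 12.2 CPM in livers labelled Fabp4 shRNA and 49.6, 24.9 and 20.7 CPM in young livers, was lower without overlap (-1.06 ± 0.34 (unadjusted p = 0.00932, adjusted p = 0.443)).

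Among the earlier steps, Mvd had 4.20, 5.12 and 5.21 CPM in livers labelled Fabp4 shRNA and 22.2, 12.0 and 4.27 CPM in young livers and a log2 fold change of -1.40 ± 0.50 (unadjusted p = 0.0177, adjusted p = 0.484). The highest young value was 5.17 times the lowest, and the lowest lay within the range of the old livers. Fdft1, the squalene synthase, had 69.4, 43.0 and 41.1 CPM in livers labelled Fabp4 shRNA and 113, 126 and 42.7 CPM in young livers (-0.88 ± 0.35 (unadjusted p = 0.0278, adjusted p = 0.513)). Ctsb overlaps Fdft1 on the other strand, and whether reads were counted by strand is not given. Hmgcs1, at 97.4, 125 and 107 CPM in livers labelled Fabp4 shRNA and 293, 177 and 49.7 CPM in young livers, overlapped because the unnumbered young library was the lowest of all 9 livers, and its log2 fold change was -0.66 ± 0.48 (unadjusted p = 0.200, adjusted p = 0.702). Fdps again rested on few reads, with 42, 5 and 9 counts in young livers and a log2 fold change of -2.66 ± 0.92 (unadjusted p = 0.0131, adjusted p = 0.461). Its groups did not overlap in CPM, but only just, at 0.366 in replicate 1 with the hairpin label and 0.381 in young replicate 5. In counts these 2 livers overlapped, at 6 and 5.

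Of sterol movement genes, Stard4 had 36.4, 37.3 and 28.1 CPM in livers labelled Fabp4 shRNA and 88.0, 71.7 and 32.6 CPM in young livers and a log2 fold change of -0.92 ± 0.30 (unadjusted p = 0.00932, adjusted p = 0.443). Young replicates 1 and 5 were far above all others, and the unnumbered library was within the range with the hairpin label. Npc1, which exports cholesterol from lysosomes, was at -0.08. In the control machinery Srebf2 (-0.26 ± 0.25 (unadjusted p = 0.332, adjusted p = 0.781)) and Insig1 (-0.79 ± 0.46 (unadjusted p = 0.118, adjusted p = 0.629)) had overlapping groups. Insig2 pointed the other way, at 0.80 ± 0.56 (unadjusted p = 0.188, adjusted p = 0.691), with 107, 522 and 384 CPM in livers labelled Fabp4 shRNA and 162, 109 and 311 CPM in young livers; replicate 1 with the hairpin label was about as low as young replicate 5.

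**Figure D3:**
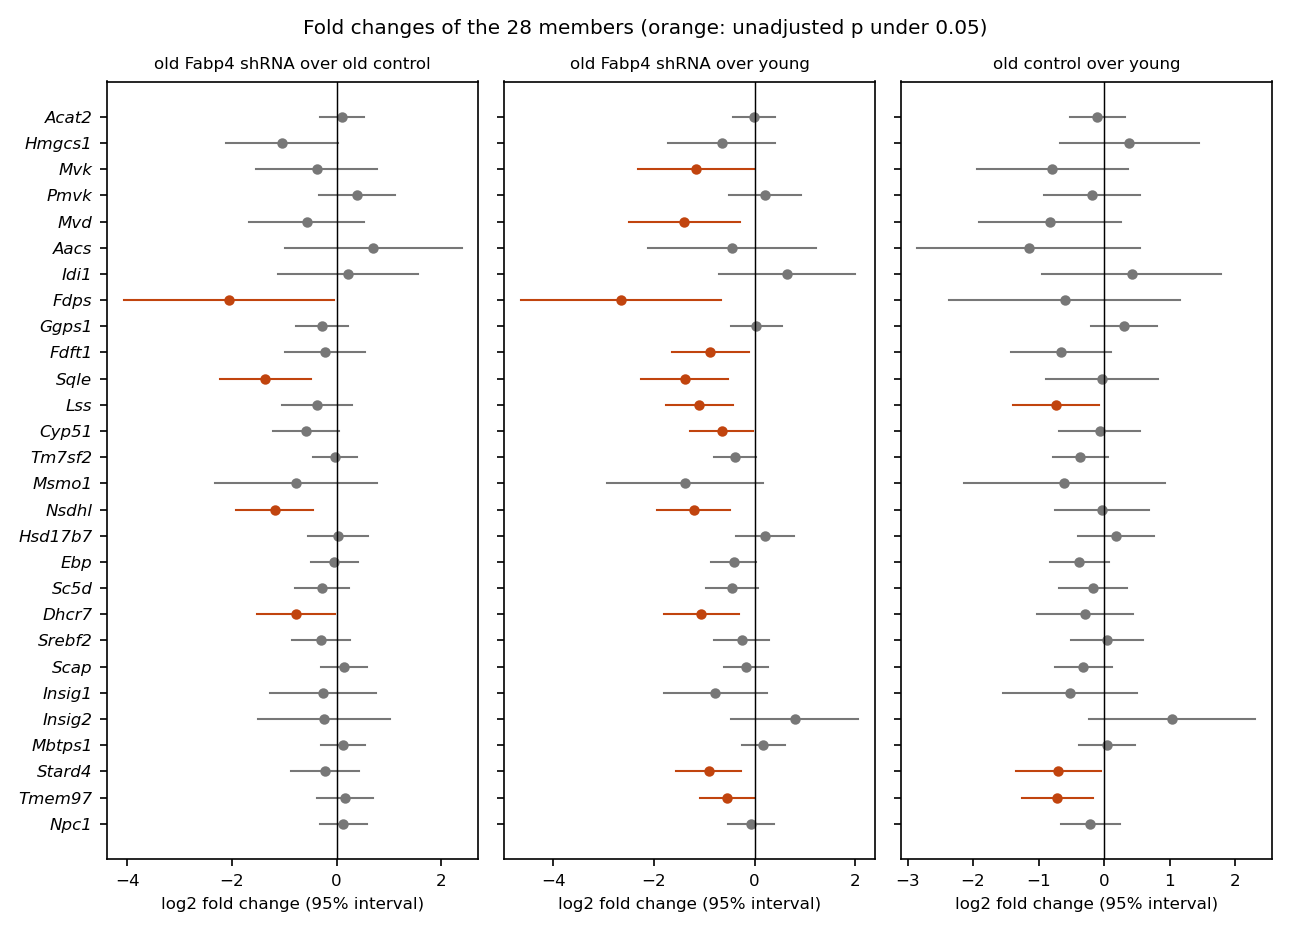
Points are edgeR log2 fold changes of the 28 genes and lines their 95% intervals, for livers labelled Fabp4 shRNA over old control (left), livers labelled Fabp4 shRNA over young (middle) and old control over young (right). Orange marks an unadjusted p under 0.05, which 4, 11 and 3 members reached, all of them lower, and 0 reached an adjusted p under 0.05.

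Between old control and young liver, 0 of 28 members were called, where 0.0357% of all genes were. At an unadjusted p under 0.05, 3 members were lower (4.07% of all genes) and 0 higher (6.42%). DESeq2, limma-voom and limma on log2 FPKM called 0, with 3, 1 and 4 lower at that p (4.91%, 3.88% and 6.52% of all genes), and DESeq2 had 1 higher (Insig2; 6.76%). The median log2 fold change was -0.25 over the members and 0.01 over all genes, and 21 members were below 0, where 48.9% of all genes were. This comparison shares its young livers with the one above and its old control livers with the one between the old groups, so the 3 sets of values are not independent.

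Tmem97 had 53.8, 43.2 and 36.1 CPM in old control livers and 77.6, 80.6 and 60.4 CPM in young livers, without overlap, and a log2 fold change of -0.71 ± 0.25, with a 95% interval of -1.26 to -0.17 (unadjusted p = 0.0136, adjusted p = 0.378). The other member whose groups did not overlap was Tm7sf2, a sterol reductase, at 87.8, 88.9 and 68.1 CPM in old control livers and 106, 113 and 95.8 CPM in young livers (-0.36 ± 0.19 (unadjusted p = 0.0833, adjusted p = 0.529)). These 2 non-overlapping members compare with 8.26% of all genes. Lss, at 17.2, 17.3 and 18.1 CPM in old control livers and 39.3, 32.7 and 15.5 CPM in young livers, differed by -0.73 ± 0.30 (unadjusted p = 0.0329, adjusted p = 0.429), and Stard4, at 40.9, 38.7 and 39.1 CPM in old control livers and 88.0, 71.7 and 32.6 CPM in young livers, by -0.70 ± 0.30 (unadjusted p = 0.0366, adjusted p = 0.443). For each, young replicates 1 and 5 were above all controls and the unnumbered library was below them. Ebp (-0.38 ± 0.21 (unadjusted p = 0.0951, adjusted p = 0.549)), Fdft1 (-0.66 ± 0.35 (unadjusted p = 0.0837, adjusted p = 0.529)) and Mvd (-0.82 ± 0.50 (unadjusted p = 0.124, adjusted p = 0.577)) followed the same order of livers less clearly, with the unnumbered library of Ebp inside the control range.

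Aacs had the lowest value of the members, and Mvk, the mevalonate kinase, lay close to Mvd. Aacs had 12.0, 3.97 and 3.21 CPM in old control livers and 16.6, 22.1 and 4.21 CPM in young livers and a log2 fold change of -1.15 ± 0.75 (unadjusted p = 0.160, adjusted p = 0.612), and Mvk had 8.41, 5.29 and 4.22 CPM in old control livers and 19.5, 6.78 and 4.78 CPM in young livers and -0.79 ± 0.52 (unadjusted p = 0.160, adjusted p = 0.613). In each the groups overlapped, with the unnumbered library inside the control range. Sqle and Srebf2 stood close to 0. Sqle had 35.3, 27.9 and 23.8 CPM in old control livers and 50.2, 25.2 and 13.3 CPM in young livers, with -0.03 ± 0.39, with a 95% interval of -0.88 to 0.82 (unadjusted p = 0.942, adjusted p = 0.983), and Srebf2 was at 0.04 ± 0.25, with a 95% interval of -0.51 to 0.59 (unadjusted p = 0.864, adjusted p = 0.962). Hmgcs1 averaged 226 ± 44.9 CPM in old control livers and 173 ± 122 CPM in young livers (SD, n = 3 each), with 0.39 ± 0.48 (unadjusted p = 0.439, adjusted p = 0.813). Insig1 was at -0.52 ± 0.46 (unadjusted p = 0.282, adjusted p = 0.718). Insig2 had the highest value of the members, 1.04 ± 0.57, with a 95% interval of -0.23 to 2.31 (unadjusted p = 0.0975, adjusted p = 0.551), from 289, 579 and 328 CPM in old control livers and 162, 109 and 311 CPM in young livers.

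Single young livers decided much of both comparisons with young liver. Without the unnumbered young library, 15 members were lower at an unadjusted p under 0.05 in livers labelled Fabp4 shRNA than in young liver (5.58% of all genes), with a median of -0.77, and 15 did not overlap (14.5% of all genes). Without young replicate 1 the count was 3 (2.64% of all genes) and the median -0.30. For old control against young, the count without the unnumbered library was 9 lower (4.75% of all genes) and 1 higher (Insig2; 5.64%), the median was -0.44, and 12 members were lower without overlap (15.3% of all genes) and 1 higher (16.4%). Without young replicate 1, 1 member was lower (3.53% of all genes), 1 higher (Hmgcs1, at 0.99; 4.57%), and the median was 0.01. The count of lower members was 0 without old control replicate 5 (2.64%), 1 without old control replicate 2 (2.87%) and 1 without young replicate 5 (3.91%). In each of these fits 0 members were called. Msmo1 shows the split, with 79.6, 71.0 and 51.5 CPM in old control livers and 149.9, 136 and 22.4 CPM in young livers.

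**Figure D4:**
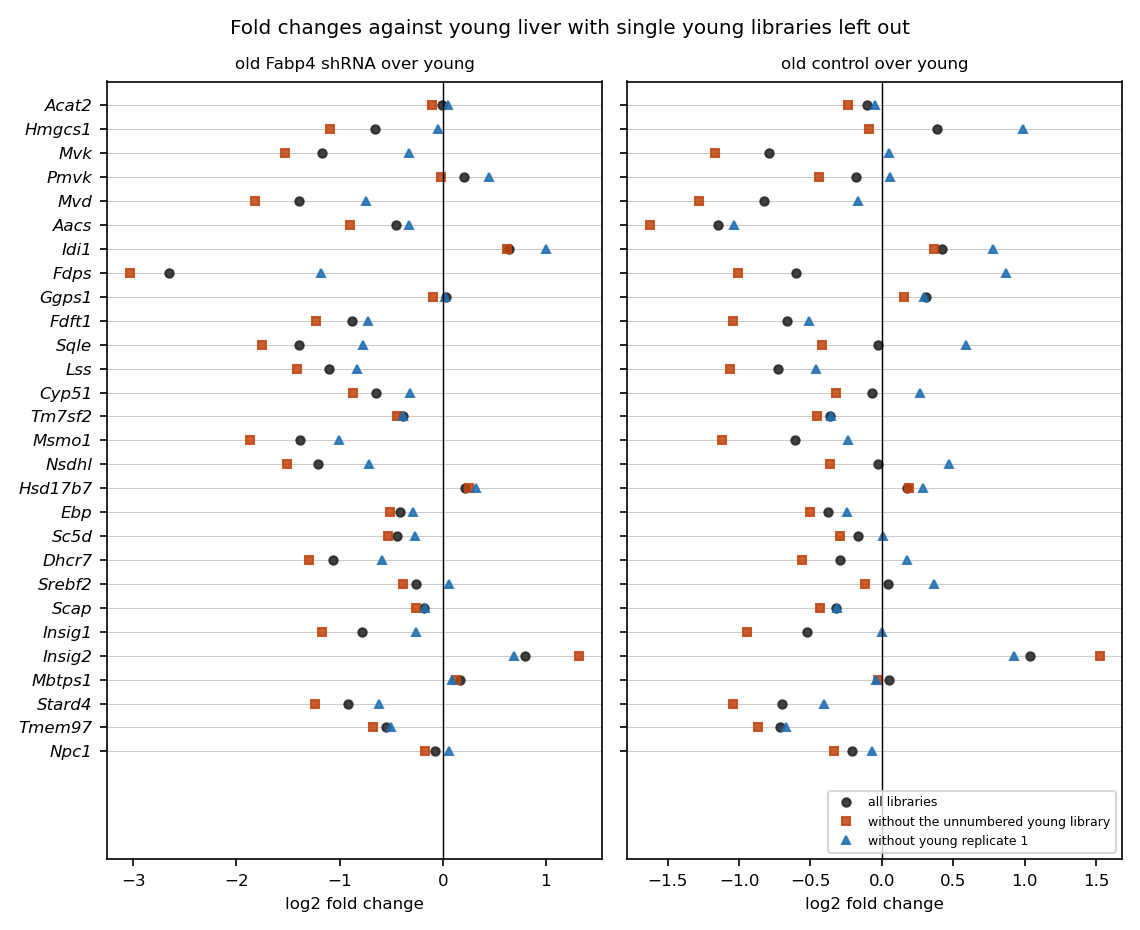
Symbols are edgeR log2 fold changes of the 28 genes in livers labelled Fabp4 shRNA over young (left) and old control over young (right), with all libraries (circles), without the unnumbered young library (squares) and without young replicate 1 (triangles). The median moves from -0.50 to -0.77 or -0.30 on the left, and from -0.25 to -0.44 or 0.01 on the right.

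The unnumbered young column held different member levels in the 2 deposited tables. As a share of all its counts, Nsdhl stood at 11.7 CPM in the count table and at 32.8 CPM in the reads worked back from its FPKM values. Hmgcs1 stood at 48.2 and 89.0 CPM, Msmo1 at 21.7 and 35.3 CPM, and Insig2 at 301 and 218 CPM, in the same order. Acta1, the skeletal actin, was 1069 CPM in the count table and 2.88 CPM in the back-calculated reads. With the back-calculated reads in place of the counts, 15 members were lower at an unadjusted p under 0.05 in livers labelled Fabp4 shRNA than in young liver (7.43% of all genes) and 5 in old control than in young liver (5.98%). Marker lists also differed between old and young livers. The summed hepatocyte markers were 64044 to 81175 CPM in livers labelled Fabp4 shRNA, 79976 to 123390 CPM in old control livers and 97017 to 157170 CPM in young livers. The sums with the hairpin label lay below all young ones, but most of each sum was Alb. Singly, Alb and Apoa1 lay below all young livers, while Ttr, Hnf4a and Cps1 overlapped with them. Mean Hnf4a was higher with the hairpin label (600 CPM) than in young livers (500 CPM). Endothelial markers (5 of 5 found) summed to 74.1 to 158 CPM in livers labelled Fabp4 shRNA, 86.1 to 161 CPM in old control livers and 54.7 to 77.8 CPM in young livers. The summed red blood cell markers (4 of 4 found) were 162 to 331 CPM in livers labelled Fabp4 shRNA, 176 to 298 CPM in old control livers and 478 to 901 CPM in young livers, and those of stellate cells (5 of 5 found) were 170 to 239, 158 to 323 and 101 to 128 CPM in the same order of groups. B cell markers were 148 to 334 CPM in old control livers and 55.3 to 69.5 CPM in young livers. Nearly all of this sum was Igkc, and Cd79a and Ms4a1 overlapped between these groups. The part of these marker lists in the comparisons with young liver was not tested.

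Dbp, an output gene of the circadian clock whose RNA in mouse liver swings widely over the day, differed widely between livers, also within groups. It had 53.4, 0.495 and 4.85 CPM in livers labelled Fabp4 shRNA, 0.580, 0.588 and 16.4 CPM in old control livers, and 100.1, 90.0 and 32.4 CPM in young livers. Arntl, a core clock activator that runs opposite to Dbp, had 0.914, 28.7 and 8.24 CPM in livers labelled Fabp4 shRNA, 23.5, 19.0 and 6.74 CPM in old control livers, and 3.25, 0.914 and 4.84 CPM in young livers. Dbp was highest in young replicates 1 and 5, and it was lowest in replicate 3 labelled Fabp4 shRNA and old control replicates 1 and 2. Old control livers did not overlap with young livers in Dbp, so from group means alone Dbp level and age group cannot be told apart. The groups of old mice overlapped in Dbp.

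A slope of each gene on log2 Dbp was fitted with group means kept, so that it compares livers within groups. Of 28 members 0 were called by edgeR (0.528% of all genes), with 2 lower at an unadjusted p under 0.05 (9.72%) and 0 higher (7.98%). DESeq2 called 2 members, where it called 4.54% of all genes, and limma-voom and limma on log2 FPKM called 0, with 2 lower at that unadjusted p in each (10.1%, 9.94% and 9.9% of all genes). The median slope was -0.01 over the members and 0.00 over all genes, 16 members were below 0, where 49.7% of all genes were, and the list as a whole was not tested.

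The members with the smallest p were Insig2 and Idi1, the isomerase of isopentenyl diphosphate, and these are the 2 that DESeq2 called. Insig2 had 107, 522 and 384 CPM in livers labelled Fabp4 shRNA, 289, 579 and 328 CPM in old control livers, and 162, 109 and 311 CPM in young livers. The livers with the lowest levels, replicate 1 labelled Fabp4 shRNA and young replicates 1 and 5, were those with the highest Dbp. Its slope was -0.25 ± 0.08, with a 95% interval of -0.44 to -0.06 (unadjusted p = 0.0143, adjusted p = 0.174) log2 units per doubling of Dbp. Idi1 had 2.32, 8.81 and 1.77 CPM in livers labelled Fabp4 shRNA, 4.99, 4.41 and 1.70 CPM in old control livers, and 3.98, 1.60 and 2.68 CPM in young livers, with a slope of -0.28 ± 0.09, with a 95% interval of -0.47 to -0.10 (unadjusted p = 0.00600, adjusted p = 0.126); the value of 8.81 CPM in replicate 3 labelled Fabp4 shRNA stood apart. Without that liver 0 members were lower at an unadjusted p under 0.05 (4.8% of all genes), and without replicate 1 of the same group 1 was (4.09%). With minus log2 Arntl in place of log2 Dbp, edgeR called Insig2, where it called 4.36% of all genes. Per2, another clock gene, in place of Dbp gave 0 called members, a median slope of 0.15, 5 members higher at an unadjusted p under 0.05 (Aacs, Fdft1, Msmo1, Tmem97 and Lss; 7.17% of all genes) and 2 lower (4.22%). On Dbp with no group means, so that differences between the groups also enter, 4 were higher (Tmem97, Lss, Fdft1 and Stard4; 7.94%) and 2 lower (9.06%).

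Hmgcs1 and Sqle showed no comparable order with Dbp. Hmgcs1 was 293 CPM in young replicate 1 and 248 and 256 CPM in old control replicates 1 and 2, although Dbp was 100.1 CPM in the young liver and 0.580 and 0.588 CPM in the old ones. Young replicates 1 and 5 had similar Dbp, but Sqle was 50.2 CPM in replicate 1 and 25.2 CPM in replicate 5. The slopes were -0.03 ± 0.11 (unadjusted p = 0.791, adjusted p = 0.922) for Hmgcs1 and 0.04 ± 0.09 (unadjusted p = 0.629, adjusted p = 0.849) for Sqle. Of the other named members, Srebf2 was at -0.06 ± 0.05 (unadjusted p = 0.185, adjusted p = 0.497), Insig1 at -0.09 ± 0.10 (unadjusted p = 0.359, adjusted p = 0.668) and Hsd17b7 at -0.08 ± 0.05 (unadjusted p = 0.112, adjusted p = 0.400), while Lss (0.08), Fdft1 (0.09) and Msmo1 (0.18) had slopes above 0 and Tm7sf2 (-0.04) below, with unadjusted p of 0.189, 0.196, 0.265 and 0.250. With log2 Dbp as a covariate between the old groups, 2 members were lower at an unadjusted p under 0.05 in edgeR, where 5.98% of all genes were. These were Sqle and Nsdhl, with log2 fold changes of -1.45 and -1.24. In that fit Insig2 in old control against young liver was at -0.15, against 1.04 without the covariate.

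**Figure D5:**
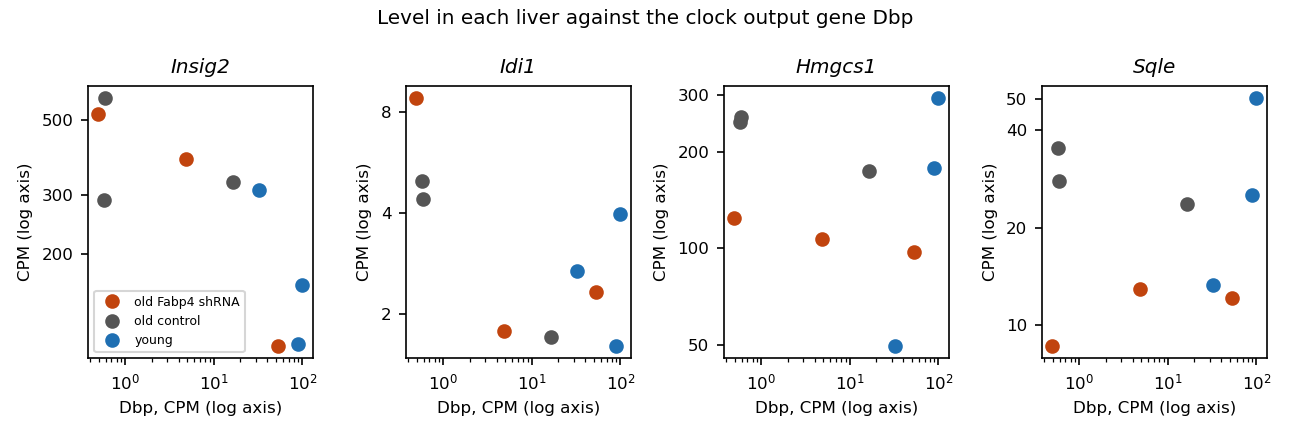
Each point is 1 liver, with Dbp CPM on the horizontal log axis and the CPM of Insig2, Idi1, Hmgcs1 or Sqle on the vertical log axis; colour gives the group. Insig2 is at 107 to 162 CPM in the 3 livers with Dbp above 50 CPM and at 289 to 579 CPM in the other 6, while Hmgcs1 and Sqle show no such order.

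Neighbouring pathways were followed through 6 further gene lists, of which edgeR called 0 members in each of the 3 group comparisons. Of fatty acid synthesis genes under SREBP1, 16 of 17 were tested, with medians of -0.09 between the old groups, -0.27 for Fabp4 shRNA against young and -0.15 for old control against young. At an unadjusted p under 0.05, 0 were lower and 1 higher between the old groups (3.48% and 3.27% of all genes). Against young liver, 3 were lower and 0 higher with the hairpin label (4.5% and 4.43%). For old control against young, 3 were lower and 2 higher (4.07% and 6.42%). The same shares of all genes apply to the counts at that p in the other lists. Lpin1, a phosphatidate phosphatase, was at -0.99 ± 0.35 (unadjusted p = 0.0159, adjusted p = 0.482) in livers labelled Fabp4 shRNA against young. Of 12 liver X receptor targets and sterol exporters, 0, 0 and 1 were at an unadjusted p under 0.05 in the same order, the last being Abcg8, a sterol exporter into bile (-0.57 ± 0.22 (unadjusted p = 0.0247, adjusted p = 0.410)). Of 10 endosomal sterol genes, Gramd1c, a sterol transfer protein, was at -0.92 ± 0.23 (unadjusted p = 0.00152, adjusted p = 0.728) between the old groups, where its values were 26.6, 24.1 and 23.3 CPM in livers labelled Fabp4 shRNA and 64.2, 38.6 and 37.2 CPM in old control livers and did not overlap. The same gene, at 0.71 ± 0.23 (unadjusted p = 0.00825, adjusted p = 0.343), was the 1 endosomal gene at an unadjusted p under 0.05 in old control against young, as was Lipa, the lysosomal acid lipase, at 0.72 ± 0.33 (unadjusted p = 0.0493, adjusted p = 0.557) for Fabp4 shRNA against young.

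Of 10 genes of isoprenoid branches, Icmt, which methylates prenylated proteins, had 17.1, 47.5 and 36.6 CPM in livers labelled Fabp4 shRNA and 20.1, 13.7 and 11.7 CPM in old control livers and a log2 fold change of 1.15 ± 0.37 (unadjusted p = 0.00899, adjusted p = 0.728), and 0 others reached an unadjusted p under 0.05 in a group comparison. In the list of 10 genes for SREBP handling and sterol-sensed degradation, 0 had an unadjusted p under 0.05 in any group comparison. Of 8 genes converting sterols to oxysterols and bile acids, 6 were tested, and 0 reached that p in a group comparison. Cyp7a1, the rate-limiting enzyme of bile acid synthesis, rose with Dbp within groups, the 1 gene of these 6 lists that edgeR called (0.528% of all genes). It had 155, 16.7 and 21.3 CPM in livers labelled Fabp4 shRNA, 20.5, 8.08 and 96.5 CPM in old control livers, and 203, 223 and 79.7 CPM in young livers. The liver with the highest Dbp of each old group also had the highest Cyp7a1, and the slope was 0.53 ± 0.08 (unadjusted p = 6.34e-05, adjusted p = 0.0254) log2 units per doubling of Dbp. Its group differences were not called (-2.02 ± 1.19 (unadjusted p = 0.133, adjusted p = 0.586) for old control against young).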

How the data were processed

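The submitters' processing notes name HISAT2 and GRCm38.p6. How reads were counted, with which annotation and whether by strand, is not given in the sources used here. A first deposited table holds raw counts per gene, and the authors' other table holds FPKM (fragments scaled to gene length and library size) for the same genes and 9 columns, of which 0 matched no group. A young column numbered 2, a number no young label has, was placed by its letter. Between the tables, FPKM per count was constant (to a relative 0.001) for 100% of 10483 genes in the other 8 columns and for 0.229% in this one. Its FPKM values were worked back to reads (100% of 17877 values whole within 0.05 reads, 226 genes not recovered), an alternative only. FPKM served to compare levels between genes.

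Counts were filtered with filterByExpr, scaled with TMM (factors 0.826 to 1.15) and fitted with edgeR 4.0.16 (R 4.3.3), robust quasi-likelihood with 1 mean per group, 6 residual degrees of freedom and a biological coefficient of variation of 0.320. Tests are two-sided, with Benjamini-Hochberg adjustment over all 14025 genes and calls at an adjusted p under 0.05. A second fit added log2 Dbp (with 0.5 counts added) to the group means, over 14024 genes. On simulated counts 91, 93 and 92 of 100 genes changed by 2 on the log2 scale were called in old control against young (14055 genes), Fabp4 shRNA against old control (14005) and Fabp4 shRNA against young (14078), and 12, 15 and 16 of 100 changed by 1; for the Dbp slope (14100 genes), 57 of 100 with a slope of 0.3 and 100 of 100 with 0.6 were called. The simulation gave every gene the same dispersion and changed only genes above a minimum mean count. Between the old groups, standard errors of the members ran from 0.19 for Tm7sf2 to 0.93 for Fdps, so these rates need not hold for each member. Errors of fold changes are standard errors, intervals are at 95%, and floors cover counting error only. The labels describe independent animals, so p-values set differences against the spread between these livers.

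Symbols, positions and shared 50-base stretches came from GENCODE mouse release M21, and promoters from RefSeq. The members, gene lists and tests were chosen with earlier results of these data known. Fold changes are named for the 8 members with the smallest p per comparison and for Srebf2, Insig1, Insig2, Hmgcs1 and Sqle, and of other lists for called genes or the 2 with the smallest p; Msmo1, Aacs, Mvk and Pmvk, the Insig2 promoter, counts of Fdps, extremes of each role and Dbp-adjusted values were chosen after their values were seen. Alternatives were DESeq2 1.42.0, limma 3.58.1 (voom, and trend on log2 FPKM plus 1 or 0.1), other scalings and filters, the 6 libraries of a contrast alone, animal numbers as a block, Dbp as a covariate, Arntl or Per2 for Dbp, and leaving out each library. Counts of non-overlapping members and of unadjusted p-values were added after seeing the data.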

Additional observations from a re-analysis of the deposited data

How the results depend on the processing

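Over 57 results and 1155 alternative values, 1080 were classed as the same as in the main fit. For the 977 fold changes and slopes, that meant the same direction and the same side of the threshold. All of these were uncalled in the main fits, so keeping the side meant staying uncalled. For counts of members, it meant an equal or similar count. The count of called members changed from 0 in these fits: old control against young had 1 (Msmo1) with the replicate block; Fabp4 shRNA against young had 2 (Lss and Nsdhl) with no filter on low counts, 1 with log2(FPKM + 1), 1 with log2(FPKM + 0.1) and 1 with back-calculated reads (Nsdhl each); the Dbp slope had 2 with DESeq2 and 1 with minus log2 Arntl. Leaving out each library kept it at 0 in every comparison. All reversed values were near 0 or uncalled, and the cause was not tested. In old control against young, Sqle (-0.03) was 0.19 with total counts only, 0.17 with limma-voom, 0.0051 with log2(FPKM + 0.1) and 0.23 with Dbp as a covariate, Srebf2 (0.04) was -0.0097 with log2(FPKM + 1), -0.0075 with log2(FPKM + 0.1), -0.090 with the replicate block, -0.040 with back-calculated reads and -0.31 with Dbp as a covariate, Hmgcs1 (0.39) was -0.13 with the replicate block, and Insig2 (1.04) was -0.15 with Dbp as a covariate. In Fabp4 shRNA against young, Srebf2 (-0.26) was 0.057 with total counts only and Insig2 (0.80) was -0.42 with the replicate block and -0.28 with Dbp as a covariate. Among slopes, Tm7sf2 (-0.04) was 0.023 and Insig1 (-0.09) was 0.034 with no group means, and with Per2 in place of Dbp Tm7sf2 was 0.039, Insig1 0.22 and Hmgcs1 (-0.03) 0.18. Over leave-one-out fits, old control against young ran from -0.12 to 0.36 for Srebf2, -0.95 to 0.0023 for Insig1, -0.089 to 0.99 for Hmgcs1 and -0.42 to 0.59 for Sqle; Insig2 ran from -0.70 to 0.19 between the old groups and Srebf2 from -0.40 to 0.064 for Fabp4 shRNA against young; slopes ran from -0.076 to 0.021 for Hmgcs1 and -0.0041 to 0.13 for Sqle. Animals that share a number in the labels deviated from their group means with correlations of -0.05, 0.09, 0.11 and 0.03, so the numbers were not taken to pair them. Only the numbers 1 and 5 occur in more than 1 library. The replicate block therefore rests on replicates 1 and 5 of old control and young livers, and on replicate 1 alone of livers labelled Fabp4 shRNA. It brought all called genes from 5 to 158 in old control against young. There the unnumbered young library has a block of its own and adds nothing to the difference. The block also leaves fewer residual degrees of freedom than the 6 of the main fit. With the block, members lower at an unadjusted p under 0.05 in edgeR were 10 in place of 3 in old control against young (6.22% of all genes, and 1 higher). The medians with the block were -0.37 in old control against young, -0.26 between the old groups and -0.82 in Fabp4 shRNA against young. For the comparisons with Fabp4 shRNA, counts are not given, because a single liver of that label enters them. With 3 livers a group, most changes of 1 on the log2 scale were missed in simulated counts that gave every gene the same dispersion. The members differ in spread, so that rate need not hold for each of them. A member that was not called is not shown to be unaltered.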
